A study of Mus musculus with 12 samples.

Results

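The genes described here are 5 uroplakins (Upk1a, Upk1b, Upk2, Upk3a and Upk3b) and 5 other genes known from the lining of the renal papilla and pelvis (Psca, Plet1, Fxyd3, Foxa1 and Trp63). They were chosen by name with the signals of these 12 arrays in view, taking every probe set annotated to 1 of these symbols alone. This gave 10 genes and 19 probe sets out of 18193 genes and 45101 probe sets on the array. The study set whole mouse kidney tissue beside progenitor cells cultured from it and organoids grown from such cells, each from cortex (the outer kidney) and from medulla (the inner kidney). The 6 groups were cortex tissue, medulla tissue, cortex-derived progenitor cells, medulla-derived progenitor cells, cortex-derived organoids and medulla-derived organoids, with 2 arrays each. Progenitor cells were kept on fibroblast feeder cells and organoids were formed in three-dimensional Matrigel. The labels name no strain, age, sex, genotype or time in culture, and do not say whether animals or cultures were pooled or how the medulla was cut from the cortex and the pelvis. They call the 2 arrays of a group biological replicates without saying from how many animals or cultures they came, so the errors below measure the spread between these arrays.

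Urothelium lines the urinary tract from the renal pelvis to the bladder and also covers part of the papilla, the tip of the medulla that projects into the pelvis. Its surface cells carry rigid membrane plaques built from uroplakins. The tetraspanins Upk1a and Upk1b form heterodimers with the other uroplakins, Upk1a with Upk2 and Upk1b with Upk3a or its relative Upk3b. Upk1b and Upk3b are also made by mesothelium. Deeper urothelial layers depend on the p53 relative Trp63, and Foxa1 is a forkhead factor of the differentiating layers.

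Members were listed with results of these same arrays known. Their levels and differences are therefore given as a description, without p-values, and counts of members past the test's threshold are printed beside the share of all tested genes past it, from which nothing is read. The 10 comparison lists used below were also chosen with earlier results of these data known. Their limma p-values and counts are therefore not independent tests and describe these arrays. Levels are deposited log2 signals of a probe set on an array and are compared only within that probe set. Differences are log2 differences of signal plus an offset, with the standard error (SE) of a linear model over all 12 arrays, and they understate the change of dim probe sets. The medians of the 12 arrays lay between 5.85 and 6.53. A gene was tested if, in 1 group or more, its signal exceeded the median of the array on both arrays. All 10 members passed, but Upk1b, Upk3a and Trp63 did so only through medulla tissue, the group where they were highest, and were bound to differ there.

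Promoter sequences of 6 members were found in the RefSeq table for GRCm38.p6, and the 250 bases before the annotated start are printed for 4 of them. Upk1a and Plet1 are shown as 2 of the 3 members that were highest in organoids, those with the larger difference from progenitors, and Upk3a and Upk3b because they are related genes with different levels in culture. Lower case is used throughout except for matches to 8 short motifs, searched on both strands, which are in capitals. The Upk1a window is chr7:30612735-30612984 on the minus strand, that of Plet1 chr9:50494275-50494524 on the plus strand, that of Upk3a chr15:85016891-85017140 on the plus strand and that of Upk3b chr5:136038246-136038495 on the plus strand.
Upk1a: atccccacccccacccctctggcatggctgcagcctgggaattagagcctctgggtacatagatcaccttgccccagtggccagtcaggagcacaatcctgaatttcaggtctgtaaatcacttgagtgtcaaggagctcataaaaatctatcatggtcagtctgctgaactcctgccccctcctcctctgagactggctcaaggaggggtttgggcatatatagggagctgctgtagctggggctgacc
Plet1: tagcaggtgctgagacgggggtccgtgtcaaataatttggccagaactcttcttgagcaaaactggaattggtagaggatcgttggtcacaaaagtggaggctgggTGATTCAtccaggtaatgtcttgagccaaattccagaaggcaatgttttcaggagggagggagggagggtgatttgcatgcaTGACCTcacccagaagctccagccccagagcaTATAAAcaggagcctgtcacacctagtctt
Upk3a: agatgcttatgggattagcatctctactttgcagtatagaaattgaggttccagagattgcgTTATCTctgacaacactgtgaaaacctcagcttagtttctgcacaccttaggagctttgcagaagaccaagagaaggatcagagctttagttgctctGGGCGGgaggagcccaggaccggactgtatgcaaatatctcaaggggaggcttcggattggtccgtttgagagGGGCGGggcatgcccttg
Upk3b: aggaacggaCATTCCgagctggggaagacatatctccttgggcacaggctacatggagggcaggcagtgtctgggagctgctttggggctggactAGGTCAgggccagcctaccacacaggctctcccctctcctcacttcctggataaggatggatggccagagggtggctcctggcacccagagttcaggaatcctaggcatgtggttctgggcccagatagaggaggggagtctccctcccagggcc

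None of the exact motif letters occurred in the Upk1a window, where the near match tatata close to the start was not counted. The Plet1 window held a TATA box (TATAAA) 30 to 25 bases before the start. TGATTCA, a match to the loose AP-1 letters searched (TGANTCA, where N is any base), lay 144 to 138 bases before the start. A nuclear receptor motif (AGGTCA on the other strand) lay 62 to 57 bases before it. Upk3a had a GATA site (AGATAA on the other strand) and 2 GC boxes (GGGCGG), whereas Upk3b had a TEAD site (GGAATG on the other strand) and an AGGTCA motif. Among the members not printed, Fxyd3 had a TEAD site, and Foxa1 had a forkhead site (TGTTTAC on the other strand) and 3 GC boxes. The eighth motif, the grainyhead site AACCNGTT, was in none of the 6. Over the 32851 promoters of the table, 12.4% held the TATA letters, 6.75% the AP-1 letters, 9.99% the GATA letters, 32.7% the GC box, 12.6% the TEAD letters, 14% the AGGTCA letters, 3.17% the forkhead letters and 1.79% the grainyhead letters in the same window. A match is a description of the letters, not a site shown to be bound.

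Upk1a, the tetraspanin that pairs with Upk2, was bright only in organoids. Its 1 probe set read 6.37 and 6.26 in cortex tissue, 6.15 and 7.35 in medulla tissue, 6.03 and 6.57 in cortex-derived progenitors and 6.41 and 6.08 in medulla-derived progenitors. In organoids it read 12.53 and 12.38 from cortex and 10.37 and 10.73 from medulla. All 4 organoid arrays thus stood above all 8 others, the cortex-derived above the medulla-derived, and the other 4 groups overlapped near the array medians. Organoids exceeded progenitors by 5.90 ± 0.33 (SE, 2 against 2 arrays) from cortex and by 4.06 ± 0.33 from medulla. Medulla-derived organoids were 1.89 ± 0.33 below cortex-derived ones.

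The organoid arrays also differed from the other arrays in their controls, so that organoid stage and labelling cannot be told apart for any member. Poly-A controls, added to RNA before labelling, had medians of 1.21 to 1.88 on organoid arrays, 7.03 to 7.37 on progenitor arrays and 7.96 to 8.83 on tissue arrays. The log2 difference between the 3′ and 5′ probe sets of Gapdh, a sign of how far labelling reached along a transcript, was 0.87 to 1.67 on organoid arrays against -0.41 to 0.18 on the rest. For Actb it was 0.0 to 0.15 on organoid arrays, 0.16 to 0.19 on progenitor arrays and 0.94 to 1.63 on tissue arrays. The Gapdh difference was also larger in cortex-derived organoids (1.53 and 1.67) than in medulla-derived ones (1.15 and 0.87), in the order of Upk1a. Its part in the Upk1a levels was not tested.

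Upk2, the partner of Upk1a, did not follow it. It read 5.96 and 4.02 in cortex tissue, 6.70 and 7.60 in medulla tissue, 6.57 and 6.46 in cortex-derived progenitors and 6.16 and 6.31 in medulla-derived progenitors. Organoid arrays read 3.98 and 2.87 from cortex and 1.71 and 5.28 from medulla. Every organoid array was below every progenitor array, by 2.02 ± 0.54 from cortex and 1.52 ± 0.54 from medulla, while Upk1a was far higher there. The medulla value moved between -2.29 and -0.74 when 1 array was left out. Outside medulla tissue no array read above 6.57, close to the array medians.

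**Figure D1:**
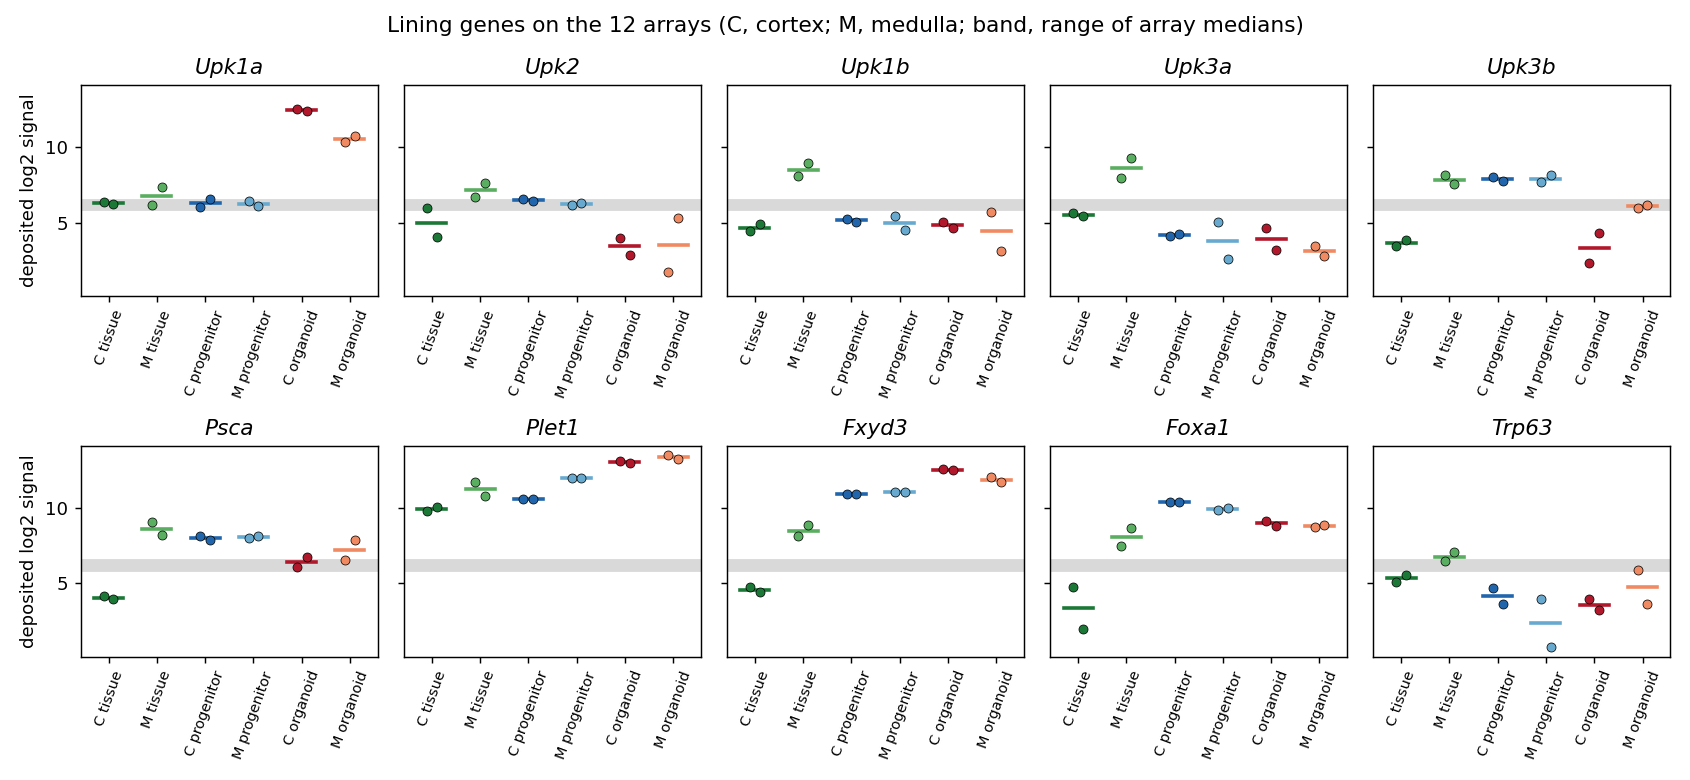
Deposited log2 signal (vertical axis) of the probe set that stands for each of the 10 genes, by group (horizontal axis; C, cortex; M, medulla); points are the 2 arrays of a group, bars their mean and the grey band the range of the 12 array medians. Upk1a reads 10.37 to 12.53 in organoids, and Upk1b and Upk3a exceed the band only in medulla tissue.

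Upk1b, the other tetraspanin, was bright only in medulla tissue. The probe set that stands for it read 8.09 and 8.93 there and 4.46 and 4.88 in cortex tissue. It read 5.24 and 5.05 in cortex-derived progenitors, 5.47 and 4.51 in medulla-derived progenitors, 5.05 and 4.62 in cortex-derived organoids and 5.72 and 3.14 in medulla-derived organoids. These 5 groups overlapped one another in the order of their means. Medulla tissue exceeded cortex tissue by 3.22 ± 0.48, and medulla-derived progenitors lay 3.00 ± 0.48 below the tissue. The gene has 4 probe sets, and medulla tissue was the highest group with all of them, while the order of the dim groups varied between probe sets. Over the 4, medulla tissue read 6.89 to 9.18 and the other 10 arrays 0.01 to 5.86, with differences between the tissues of 3.13 to 3.97. The representative probe set is of the x type, which can cross-hybridize, but 2 of the others are not.

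Upk3a, a partner of Upk1b, had a similar pattern. It read 5.61 and 5.41 in cortex tissue and 7.94 and 9.26 in medulla tissue. In culture it read 4.08 and 4.27 in cortex-derived progenitors, 5.04 and 2.57 in medulla-derived progenitors, 4.67 and 3.16 in cortex-derived organoids and 3.43 and 2.81 in medulla-derived organoids. The medulla tissue arrays were above all others and the cortex tissue arrays above all cultures, whose 4 groups overlapped. Medulla tissue exceeded cortex tissue by 2.73 ± 0.49, and the medulla-derived progenitors lay 3.67 ± 0.49 below their tissue. Among all pairs of members, Upk1b and Upk3a had the most alike profiles over the 12 arrays, with a root mean square difference of 0.57 log2 units after each was centred on its mean. Both passed the brightness filter only through medulla tissue, so a shared peak there is partly built in. Trp63, which passed in the same way, was 0.71 from Upk1b and 0.85 from Upk3a.

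Upk3b, the other partner of Upk1b, read alike in medulla tissue and in progenitor cells of both regions, and was dim in cortex tissue. Its representative probe set read 3.45 and 3.83 in cortex tissue, 8.13 and 7.55 in medulla tissue, 8.02 and 7.75 in cortex-derived progenitors and 7.68 and 8.15 in medulla-derived progenitors. The organoid levels were 2.32 and 4.30 from cortex and 5.97 and 6.20 from medulla. Medulla tissue and both progenitor groups overlapped, medulla-derived organoids came next, and cortex-derived organoids overlapped cortex tissue. The region difference was 3.14 ± 0.35 in tissue, 0.03 ± 0.35 in progenitors and 1.65 ± 0.35 in organoids. The second probe set gave 2.30 ± 0.55, -0.12 ± 0.55 and 0.98 ± 0.55. Progenitors exceeded tissue by 3.19 ± 0.35 in cortex and by 0.07 ± 0.35 in medulla, and organoids lay below progenitors by 3.25 ± 0.35 and 1.63 ± 0.35.

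Psca, a surface protein held by a lipid anchor and known from urothelium and prostate, resembled Upk3b. It read 4.15 and 3.95 in cortex tissue, 9.06 and 8.22 in medulla tissue, 8.15 and 7.87 in cortex-derived progenitors and 8.04 and 8.14 in medulla-derived progenitors. In organoids it read 6.11 and 6.76 from cortex and 6.57 and 7.91 from medulla, and the 2 groups overlapped. Cortex tissue was the lowest group on every array. Medulla exceeded cortex by 3.71 ± 0.41 in tissue, 0.08 ± 0.41 in progenitors and 0.72 ± 0.41 in organoids. Psca and Upk3b formed the second most alike pair of members, with a root mean square difference of 0.69.

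Plet1, a surface protein with a lipid anchor that is known from epithelial progenitor cells, had a region difference of like size in tissue and progenitors with 2 of its 3 probe sets. Its representative probe set read 9.80 and 10.04 in cortex tissue, 11.73 and 10.83 in medulla tissue, 10.61 and 10.62 in cortex-derived progenitors and 12 and 11.99 in medulla-derived progenitors. Organoid signals were 13.14 and 12.96 from cortex and 13.50 and 13.27 from medulla, the highest of the 6 groups. Medulla exceeded cortex by 1.35 ± 0.22 in tissue, 1.37 ± 0.22 in progenitors and 0.34 ± 0.22 in organoids. A second probe set gave 0.97 ± 0.33 in tissue and 1.26 ± 0.33 in progenitors, and the third -0.42 ± 0.50 and -0.06 ± 0.50. All 3 were higher in organoids than in progenitors. Organoids exceeded progenitors from cortex by 2.42 with the representative probe set and by 5.58 and 4.58 with the others. Within each of the 3 probe sets, every organoid array read above every tissue and progenitor array. With the third, organoid arrays read 11.95 to 12.46 and the others 4.51 to 6.99. As for Upk1a, these organoid levels go with the control signals given above.

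Fxyd3, a small membrane protein that modulates the sodium pump, was lowest in cortex tissue and highest in cortex-derived organoids, with no overlap between neighbouring groups. It read 4.79 and 4.40 in cortex tissue, 8.12 and 8.87 in medulla tissue, 10.94 and 10.91 in cortex-derived progenitors and 11.06 and 11.05 in medulla-derived progenitors. In organoids it read 12.07 and 11.70 from medulla and 12.56 and 12.52 from cortex. Medulla exceeded cortex by 3.26 ± 0.21 in tissue and by 0.13 ± 0.21 in progenitors, and was 0.65 ± 0.21 below it in organoids. Progenitors exceeded tissue by 5.64 ± 0.21 in cortex and 2.51 ± 0.21 in medulla.

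Foxa1, which opens chromatin for other factors, was highest in progenitor cells. It read 4.78 and 1.96 in cortex tissue, 7.51 and 8.69 in medulla tissue, 10.38 and 10.40 in cortex-derived progenitors and 9.84 and 9.99 in medulla-derived progenitors. Its organoid levels were 9.17 and 8.82 from cortex and 8.76 and 8.89 from medulla, and the 2 groups overlapped. Medulla exceeded cortex by 3.35 ± 0.39 in tissue, and was 0.47 ± 0.39 below it in progenitors and 0.16 ± 0.39 below it in organoids. Organoids lay below progenitors by 1.37 ± 0.39 from cortex and 1.06 ± 0.39 from medulla.

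Trp63, the factor of basal urothelial cells, stayed dim. The probe set that stands for it read 5.10 and 5.58 in cortex tissue, 6.46 and 7.05 in medulla tissue and 0.78 to 5.86 on the 8 culture arrays. Medulla tissue was the highest group and exceeded cortex tissue by 1.15 ± 0.49. The other 3 probe sets gave -0.28, -0.49 and -0.82 for that difference and read between -1.79 and 5.86 on all arrays, so the difference rests on 1 probe set. Trp63 was below the array medians in both organoid groups and both progenitor groups.

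**Figure D2:**
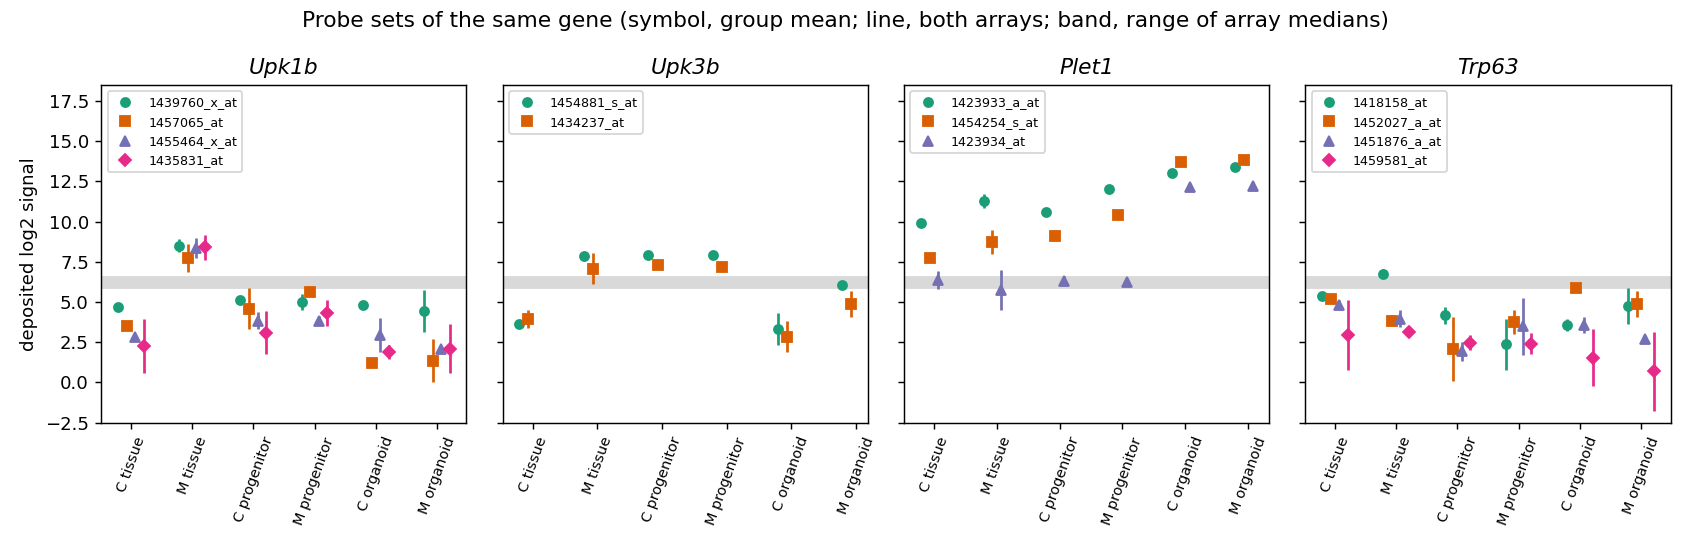
Deposited log2 signal (vertical axis) by group (horizontal axis; C, cortex; M, medulla) for every probe set of the 4 members that have several; symbols are group means, vertical lines join the 2 arrays and the grey band is the range of array medians. The 4 probe sets of Upk1b are highest in medulla tissue (6.89 to 9.18), while for Trp63 only 1 of the 4 rises above the grey band there.

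In tissue, all 10 members had a higher mean in medulla, with a median difference of 2.94 against 0.01 over all tested genes. The arrays of the 2 regions did not overlap for 9 members, Upk1a being the exception, as for 45.1% of tested genes. With 2 arrays a group, 7 members (Upk1b, Upk3a, Upk3b, Psca, Plet1, Fxyd3 and Foxa1) passed limma's threshold of adjusted p = 0.05, as did 0.338% of tested genes, or 44 genes. Without the first cortex tissue array 4 members and 14 genes passed, and without the second 4 members and 24 genes. Without the first medulla tissue array 6 members and 25 genes passed, and without the second 6 members and 238 genes. Upk3a passed under 4 of 14 alternative settings, Plet1 under 9 of 15 and Upk1b under 10 of 14. Upk1b and Upk3a were tested only because medulla tissue passed the brightness filter, so their calls here are not independent of it. In a fit of the 4 tissue arrays alone 0 members and 1 gene passed.

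The 2 medulla tissue arrays were not alike. The first read higher for Plet1, Psca and Upk3b, and the second for Upk1a, Upk1b, Upk2, Upk3a, Foxa1, Fxyd3 and Trp63. In these whole tissues, fewer cells of a type and less RNA per cell cannot be told apart.

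The labelled regions were set beside other genes of the tissue, from lists chosen with earlier results of these data known. Slc14a2, the urea transporter of the inner medulla, read 12.68 and 10.83 in medulla tissue and 5.57 and 5.49 in cortex tissue, a rise of 5.82 ± 0.50 (limma adjusted p = 0.000368). It passed the brightness filter only through medulla tissue, so its call is not independent of the filter. Its second probe set did not separate the regions, with 6.35 and 6.57 against 5.45 and 6.66. Of 12 tested collecting duct and papilla genes, 2 were higher in medulla tissue and 0 lower, beside 0.338% of all tested genes called in either direction. The summed signal of the list was 45202 to 72764 in medulla tissue and 30679 to 35759 in cortex tissue. The 6 proximal tubule markers were nearly as bright in medulla tissue (summed signal 80642 to 115774) as in cortex tissue (117538 to 126498), and none passed. Nor did any of the 6 smooth muscle, 10 fibroblast, 6 leukocyte or 6 endothelial genes. Summed smooth muscle signal was 3913 to 6914 in medulla tissue and 3855 to 4812 in cortex tissue, and that of the mesothelial list 15070 to 15864 and 11007 to 14672. The latter sum rests mostly on Gpm6a, which read 12.97 to 13.51 in the tissues where Msln read 2.02 to 6.10, so it does not measure mesothelium alone. The part of the cell types of these lists in the members' difference was not tested.

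Some other urothelial and basal genes were higher in medulla tissue, and none of those tested was called lower. Of 15 tested urothelial differentiation genes, 4 rose and 0 fell, beside 0.338% of all tested genes called in either direction. Their median was 0.49, against 0.01 over all tested genes. The keratin Krt19 rose by 2.58 ± 0.34 (limma adjusted p = 0.00684) and Krt18, a keratin of simple epithelia, by 1.25 ± 0.16 (adjusted p = 0.00474). The epithelial transcription factors Klf5 and Ehf rose by 2.43 ± 0.22 (limma adjusted p = 0.000523) and 1.20 ± 0.20 (adjusted p = 0.0332). Of 11 basal epithelial genes only the keratin Krt15 passed, reading 6.89 and 7.83 in medulla tissue against 1.95 and 1.22 in cortex tissue (3.31 ± 0.40, limma adjusted p = 0.00366). Krt15 too was tested only because medulla tissue passed the brightness filter, so its call is not independent of it. Krt5, the main basal keratin, read 6.70 and 7.94 against 4.15 and 4.94 and did not pass. Sprr1a, a squamous envelope protein, rose by 3.58 ± 0.38 (limma adjusted p = 0.0015) and was the 1 gene of 5 on that list that passed. Msln, a mesothelial surface protein, rose by 1.45 ± 0.27 (limma adjusted p = 0.0484), a call that ended under 11 of 14 alternative settings.

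The calls of Krt19 and Krt18 ended without the first cortex tissue array, and that of Ehf without either cortex array or the first medulla array. The Klf5 call rests on 1 of its 3 probe sets, since the other 2 read 2.89 to 6.20 in both tissues. In the tissue arrays alone, none of the genes named in this comparison passed.

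In progenitor cells the region difference of most members was near 0. The median over the 10 was -0.05 against 0.00 over all tested genes. Only Plet1 passed limma's threshold, as did 0.314% of tested genes (41 genes), and it did so in no fit that left out 1 of the 4 progenitor arrays. The arrays of 4 members did not overlap between the regions, as for 42.8% of tested genes. Gata3, a factor of collecting duct and urothelium, was the 1 of 15 urothelial differentiation genes that passed. It read 7.82 and 7.76 in medulla-derived and 5.86 and 5.56 in cortex-derived progenitors (1.81 ± 0.27, limma adjusted p = 0.0122), and this call too ended without any 1 of these arrays.

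The change of the region difference from tissue to progenitors subtracts the tissue difference, and the members were listed with these signals in view. A negative value is therefore partly built in. The change was between -3.11 and -3.82 for Upk3b, Fxyd3, Psca and Foxa1. These 4 members passed limma's threshold for it, as did 0.284% of tested genes (37 genes). The count fell to 2 without either cortex tissue array or the first medulla tissue array, and to 1 without any 1 progenitor array, while it stayed at 4 without the second medulla tissue array. Upk1b and Upk3a had changes of -3.31 ± 0.68 and -2.79 ± 0.70 that did not pass, and Plet1 had 0.03 ± 0.32. Fxyd3 and Foxa1 read higher in the progenitors of both regions than in medulla tissue, Upk3b overlapped it, and Psca was slightly lower (7.87 to 8.15 against 8.22 to 9.06). For Upk1b and Upk3a the progenitors of both regions were below medulla tissue, the only group through which these genes passed the brightness filter.

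**Figure D3:**
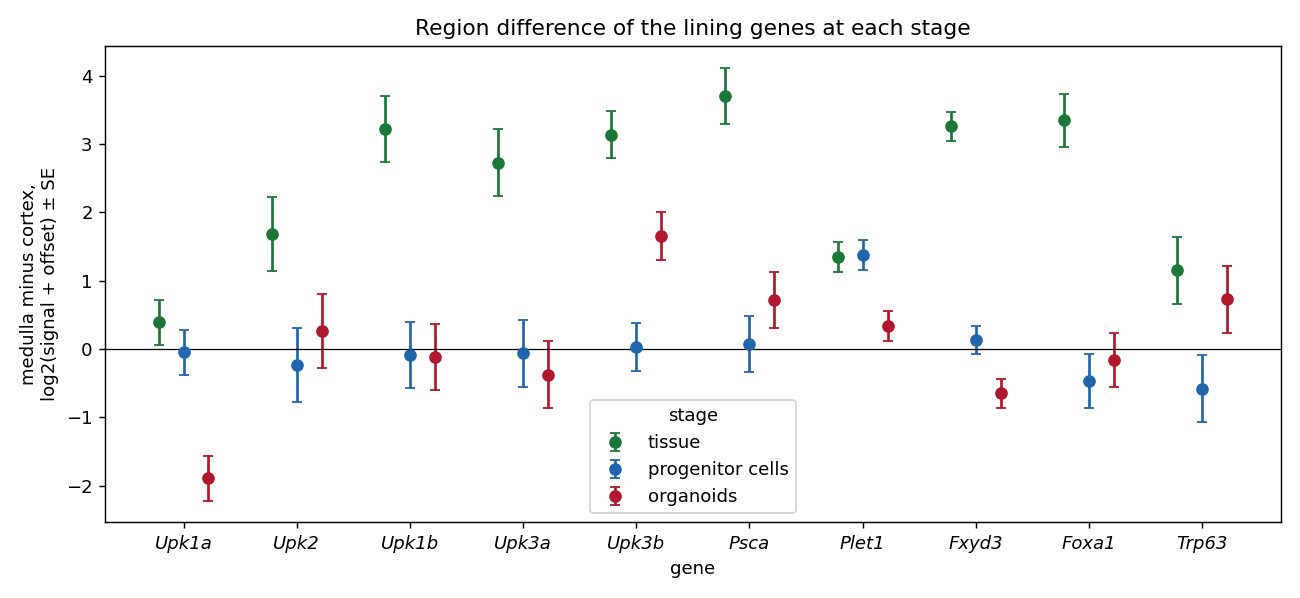
Medulla minus cortex (vertical axis, log2 of signal plus offset, ± SE, 2 against 2 arrays) for the 10 members (horizontal axis) in tissue, progenitor cells and organoids. Tissue differences are between 0.39 and 3.71, and in progenitors Plet1 alone, at 1.37, stands more than 1 unit from 0.

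Against tissue, progenitors from cortex were higher for 5 members (Foxa1, Fxyd3, Upk3b, Psca and Plet1) and lower for 0 at limma's threshold, beside 32.1% of tested genes higher and 30.6% lower. From medulla they were higher for Fxyd3, Foxa1 and Plet1 and lower for Upk3a, Upk1b and Trp63, beside 31.0% of tested genes higher and 31.1% lower. Upk3a, Upk1b and Trp63 passed the brightness filter only through medulla tissue, so they were bound to lie below it in culture. The other 3 probe sets of Trp63 gave 0.01, 0 and -0.21 from medulla. The members' medians were 0.90 and -0.48, beside 0.05 and 0.02 over all genes tested. Organoids against tissue gave 5 higher and 0 lower in cortex (30.8% of tested genes higher and 41.1% lower) and 3 higher and 6 lower in medulla (28.1% of tested genes higher and 42.3% lower). Upk3a, Upk1b and Trp63 were again among the 6 lower in medulla. The tissue groups enter the comparisons of progenitors and of organoids alike. Of the 15 urothelial differentiation genes, 11 rose and 3 fell in organoids against tissue from cortex and 9 rose and 2 fell from medulla. The umbrella cell keratin Krt20 rose by 6.52 ± 0.24 (limma adjusted p = 9.66e-10) and 5.64 ± 0.24 (adjusted p = 3.63e-09). Among the few that fell was Snx31, a sorting protein of umbrella cells, in medulla-derived organoids, from 7.38 and 8.54 in the tissue to 1.39 and 0.98 (-3.93 ± 0.42, limma adjusted p = 5.35e-06).

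Several keratins of the urothelial differentiation list, not all of them particular to urothelium, rose in progenitors of both regions. Upk1a, Upk1b, Upk2 and Upk3a were not called higher there. Of the 15 urothelial differentiation genes, 12 rose and 3 fell in cortex-derived progenitors against cortex tissue, and 10 rose and 3 fell from medulla. Of all tested genes, 32.1% rose and 30.6% fell from cortex, and 31.0% rose and 31.1% fell from medulla. Krt20, the keratin of umbrella cells, read 4.85 to 6.16 in tissue and 12.67 to 12.77 in progenitors and rose by 6.97 ± 0.24 (limma adjusted p = 5.75e-10) and 6.74 ± 0.24 (adjusted p = 8.99e-10). Krt19 rose by 7.95 ± 0.34 (limma adjusted p = 2.4e-09) and 5.38 ± 0.34 (adjusted p = 6.94e-08). The 3 that fell in cortex-derived cells were Gata3 (from 8.56 and 8.76 to 5.86 and 5.56), Snx31 (-2.83 ± 0.42) and Ovol1 (-1.17 ± 0.43). Pparg, a followed gene of the list that did not pass the brightness filter, read 3.25 to 6.41 in tissue and 1.07 to 3.29 in progenitors.

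Of the 11 basal epithelial genes, 6 rose and 1 fell from cortex and 6 rose and 3 fell from medulla, beside 32.1% and 31.0% of all tested genes that rose. Cd44, a hyaluronan receptor, rose by 5.94 ± 0.14 (limma adjusted p = 6.78e-11) and 5.47 ± 0.14 (adjusted p = 1.45e-10), and the laminin chain Lamb3 by 5.69 ± 0.30 and 4.35 ± 0.30. Krt15 and Krt5 were at 1.63 to 2.83 and 4.95 to 5.58 in progenitors. Collecting duct and papilla genes mostly fell, 10 of 12 from cortex and 11 of 12 from medulla, with 1 higher in each. Of all tested genes, 30.6% and 31.1% fell.

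Markers of other cells moved in the same comparisons. Summed fibroblast signal was 11287 to 16325 in progenitors and 4569 to 8903 in tissue, and feeder cells can enter it. In no culture group did any of the 6 endothelial markers exceed the array median on both arrays. Msln read 12.36 to 12.51 in progenitors and 2.02 to 6.10 in tissue. Gpm6a, Tcf21 and Wt1, also on the mesothelial list, fell in cortex-derived progenitors by 9.07, 6.18 and 3.95 (limma adjusted p = 5.21e-10, 4.21e-08 and 1.21e-05). Gpm6a was bright in both tissues (12.97 to 13.51) where Msln was dim, and the genes of this list did not move together. The part of fibroblasts and of mesothelium in the Upk3b and Upk1b levels was not tested.

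**Figure D4:**
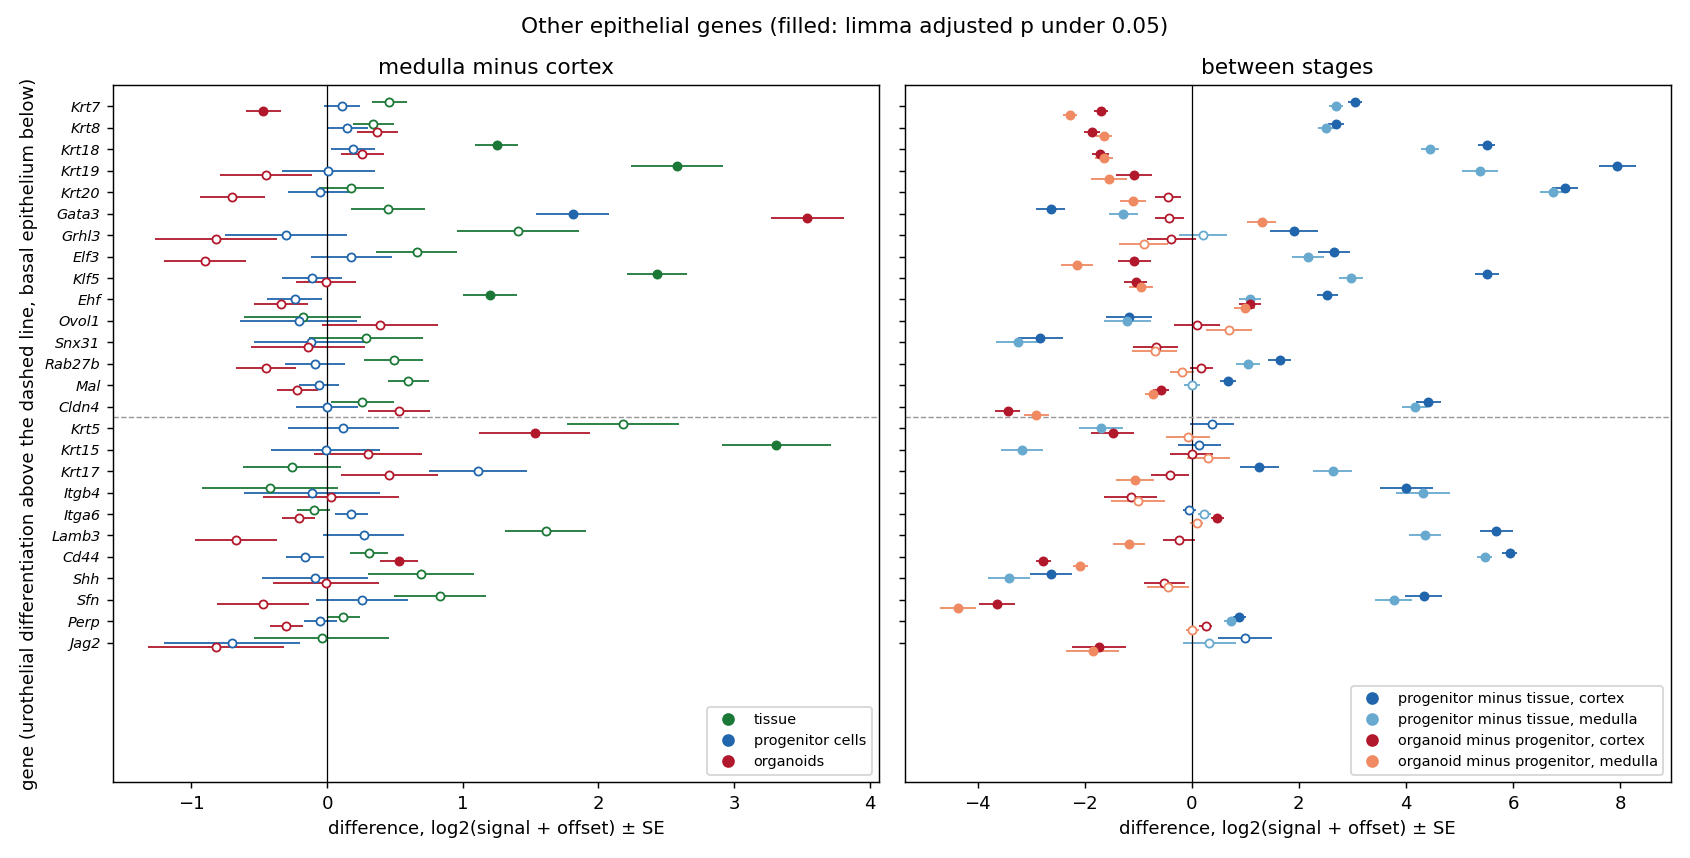
Differences (horizontal axis, log2 of signal plus offset, ± SE) of 15 urothelial differentiation and 11 basal epithelial genes (vertical axis), medulla minus cortex on the left and between stages on the right; filled points passed limma's adjusted p of 0.05. Krt19, Klf5 and Krt15 separate the tissues, Gata3 separates the cultures, and Krt19 and Krt20 rise in progenitors.

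From progenitors to organoids the members went both ways. From cortex, Upk1a, Plet1 and Fxyd3 were higher and Foxa1, Psca, Upk2 and Upk3b lower at limma's threshold, beside 24.3% of tested genes higher and 37.5% lower. From medulla the same 3 were higher and Upk3b, Upk2 and Foxa1 lower, beside 23.7% of tested genes higher and 38.6% lower. The median over all genes tested was itself -0.28 in both regions, and the members' medians were -0.26 and -0.32. Of the urothelial differentiation genes, 1 rose and 8 fell from cortex and 2 rose and 9 fell from medulla. Cldn4, a tight junction protein, fell by 3.44 ± 0.23 (limma adjusted p = 2.31e-07) and 2.90 ± 0.23 (adjusted p = 8.27e-07), and Krt7 fell by 1.69 ± 0.13 and 2.27 ± 0.13. Krt20 read 11.49 to 12.33 in organoids. Of the basal genes, 1 rose and 4 fell from cortex and 0 rose and 5 fell from medulla.

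Between organoids of the 2 regions, Upk3b was higher and Upk1a lower from medulla, and these 2 members passed limma's threshold, as did 18.0% of tested genes (2341 genes). Upk3b read below the array median on every organoid array, and its second probe set, with 0.98, was not called. Without the first cortex-derived organoid array 1 member and 1233 genes passed, and without the second 2 members and 1069 genes. Without the first medulla-derived organoid array 4 members and 3245 genes passed, and without the second 3 members and 4388 genes. The arrays of 4 members did not overlap, as for 50.3% of tested genes. The change of the Upk1a region difference from progenitors to organoids, -1.84 ± 0.46, passed limma's threshold, as did 4.10% of tested genes. No other member passed, and Upk1a did not pass without any 1 of the progenitor or cortex-derived organoid arrays.

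Gata3 read 9.19 and 9.12 in medulla-derived organoids against 4.74 and 5.50 in cortex-derived ones (3.54 ± 0.27, limma adjusted p = 3.62e-05). Krt5 rose by 1.53 ± 0.41 (limma adjusted p = 0.0247) with medulla-derived arrays at 4.87 and 5.52, a call lost without either cortex-derived array or the second medulla-derived array. Of 15 urothelial differentiation genes 1 rose and 1 fell, and of 11 basal genes 2 rose and 0 fell. Of 10 fibroblast genes 9 rose, beside 18.0% of all tested genes called in either direction. Their summed signal was 8414 to 8463 from medulla and 2117 to 2610 from cortex. That signal moved with Upk3b, whose deposited levels were 5.97 and 6.20 against 2.32 and 4.30, and its part in the Upk3b difference was not tested.

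The tested genes with profiles most like the members' were found by the root mean square difference between centred profiles over the 12 arrays. For Upk1a these were Hpgds (0.39), Lipk (0.44) and Rpf2 (0.54), which read 9.92 to 11.46, 7.43 to 10.67 and 12.94 to 13.51 in organoids and 4.10 to 5.52, 0.52 to 3.93 and 8.13 to 8.85 elsewhere. Upk1b was closest to Krt15 (0.54), Uncx (0.59) and Wnt11 (0.61), and Upk3a to Elfn1 (0.57), Krt15 (0.64) and Wnt11 (0.73). Krt15, the basal keratin called between the tissues above, and the ligand gene Wnt11 thus came up for both. Krt15, like Upk1b and Upk3a, passed the brightness filter only through medulla tissue, so their likeness is partly built in. Upk3b and Psca shared Sim2 (0.65 for each) and Cck (0.74 and 0.77). Foxa1 was closest to Klf5 (0.62), Fxyd3 to the zinc transporter Slc39a4 (0.65) and to Macc1 (0.65), and Plet1 to the forkhead gene Foxc1 (0.45). For the dim Upk2 and Trp63 the closest were Arid3a (0.48) and Iglv1 (0.39). These distances describe 12 arrays in 6 groups and carry no test.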

How the data were processed

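RNA of 12 samples in 6 groups of 2 was labelled with a 3′ IVT kit and hybridised to whole-genome mouse arrays, per the labels' protocols. Each value is a log2 signal of 1 probe set, as the authors deposited it, made with MAS5 per the submitters' processing notes (version not given in the sources used here). Per the values, every array has a mean unlogged signal of 500 after trimming 2% at each end. Detection calls were not used. The array number limits the precision.

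The platform annotation gives 1 symbol to 34958 of 45101 probe sets, of which 34754 matched a current gene by gene ID. Several symbols are given for 932 and none for 9211, and these, with 64 controls, were not used for gene results. Unlogged signals plus 15.1473 units (their 25th percentile) were logged again. The probe set with the highest mean stood for each of 18193 genes, and 13037 genes exceeded the median of the array on both arrays of 1 group or more. R 4.3.3 and limma 3.58.1 fitted 6 group means to all 12 arrays with a variance trend (6 residual degrees of freedom, median prior 5.67). Two-sided p-values were adjusted over the 13037 genes by Benjamini and Hochberg's method, with 0.05 as the threshold. The fit was tested on simulated data with known changes.

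The members and the 10 comparison lists were chosen with earlier results of these data known. Of the lists, named genes are up to 4 per list and comparison, past the threshold, with the largest differences and no overlap of arrays, plus 16 followed whether changed or not. On those lists, leukocyte, endothelial and proximal tubule genes fell in both progenitor groups, 6 of 6 tested each, beside 30.6% (cortex) and 31.1% (medulla) of all tested genes. For each member, the 3 most similar tested genes were found, without unnamed gene models. Promoters are RefSeq's for GRCm38.p6, and no genome coordinates of probe sets were used. Alternatives were 2 normalizations, 2 offsets, 2 filters, the mean of probe sets, each probe set alone and no variance trend. Others were the replicate number as a block, a fit of the compared groups alone and each array left out. Except for the mean of probe sets and each probe set alone, all kept the same probe set for a gene.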

Additional observations from a re-analysis of the deposited data

Results flagged for a closer look

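The change of the region difference between stages passed limma's threshold in a model of all 12 arrays for some members. From tissue to progenitor cells 4 members passed, as did 0.284% of tested genes (37 genes). From progenitor cells to organoids 1 member passed, as did 4.10% of tested genes (535 genes). From tissue to progenitor cells, the medulla minus cortex difference changed by -3.11 for Upk3b, -3.13 for Fxyd3, -3.63 for Psca and -3.82 for Foxa1 (log2 of signal plus offset). From progenitor cells to organoids it changed by -1.84 for Upk1a. Of 19 alternative settings, Upk3b passed under 10, Psca under 11, Foxa1 under 13, Fxyd3 under 19 and Upk1a under 7. The members were listed with these arrays' results known, so the values describe these arrays and carry no p-value. The change from tissue to progenitor cells also subtracts the tissue difference of members so listed, and a negative value there is partly built in.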

How the results depend on the processing

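Of the 53 member differences past the threshold over 11 comparisons, none changed sign under any alternative that kept the member. Quantile normalization and the median offset kept all 53, 75th percentile scaling 52, no filter 51, no variance trend 46, an offset of 1 kept 45 and the fit of the compared groups alone 42. The stricter filter of 6 arrays kept 45 of the 45 it could test, and the mean of probe sets 46 of 51. With every probe set on its own (24203 tested), 51 were kept. Between the tissues, 8 of 16 member probe sets past the filter were called, beside 34 of the 24203. Probe sets of Upk1b, which passed the filter only through medulla tissue, are among the 8. Gata2 turned from -0.93 in cortex-derived organoids against progenitors to 0.05 with the mean of probe sets.

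Between the tissues, 44 genes were called, against 29 with the 6-array filter, 25 with the mean of probe sets, 21 without the trend and 1 with the compared groups alone, where 0 members passed. Between progenitors, 41 genes became 63 with the median offset and 145 with the compared groups alone, and the 1 member called became 0 with the mean of probe sets or without the trend. Between organoids, 2341 genes and 2 members became 240 and 1 with the compared groups alone. For medulla progenitors against tissue, 6 members became 3 with the 6-array filter, which tested fewer genes. For the change of the region difference from tissue to progenitors, 37 genes became 23 without the trend and 71 with the compared groups alone, and 4 members became 2 with an offset of 1 or without the trend. From progenitors to organoids, 535 genes became 266 with the compared groups alone. There the 1 member became 0 with 75th percentile scaling, an offset of 1, no filter or no trend, and 2 with the compared groups alone. The causes were not tested.

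Leaving out 1 array gave 14 to 238 genes and 4 to 6 members between tissues, 13 to 20 and 0 to 0 between progenitors, and 1069 to 4388 and 1 to 4 between organoids. For progenitors against tissue it gave 6803 to 7015 and 4 to 5 in cortex, and 6810 to 7195 and 5 to 7 in medulla. For organoids against progenitors it gave 6647 to 7047 and 5 to 7 in cortex, and 6706 to 8595 and 4 to 8 in medulla. For organoids against tissue it gave 8424 to 8487 and 5 to 6 in cortex, and 8305 to 9576 and 8 to 9 in medulla. For the changes of the region difference it gave 11 to 131 and 1 to 4 from tissue to progenitors, and 123 to 2544 and 0 to 2 from progenitors to organoids. A group left with 1 array was assumed to vary like the others.

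With the replicate number as a block, 51 of the 53 differences were kept. Lost were Upk3a between tissues and Upk1a in the change from progenitors to organoids, where the member count became 0. Deviations of same-numbered arrays correlated between -0.138 and 0.057 over all pairs of groups, so the numbers were not taken as pairs, and the labels do not settle it. MAS5 signals near or below the array medians are imprecise, and the orders given among them describe these arrays alone. Such are those of Trp63 and Upk2, of Upk1b and Upk3a in the cultures, and of Upk3b in the organoids.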
